A study of Mus musculus with 2 samples.

Results

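Conventional type 2 dendritic cells (cDC2) of the mouse dorsal meninges were picked out of single-cell RNA-seq of 2 libraries, Sham and TBI (traumatic brain injury), and 208 of 5816 filtered cells (150 to 5000 genes, at most 20% mitochondrial and 5% hemoglobin UMIs) were taken as cDC2. A cell was counted as a cDC2 when it held at least 10 UMIs (unique molecular identifiers, each standing for 1 captured RNA molecule) of the MHC class II gene H2-Aa and at least 1 UMI of 2 or more of the markers Cd209a, Ccl17, Flt3, Clec10a and Cd209c. Its C1qa, C1qb and C1qc together had to stay under 0.5% of its UMIs, and it had to hold 0 UMIs of Xcr1, Clec9a, Ccr7, Siglech and Cd79a, which mark cDC1, migratory dendritic cells, plasmacytoid dendritic cells and B cells. Of the 208 cells, 84 came from Sham and 124 from TBI. Each library pooled the meninges of 5 male wild-type C57BL/6 mice (C57BL/6J in the study's methods) of 10 to 12 weeks of age (another label gives 10 weeks), taken 1 week after the procedure. TBI mice received a single mild closed-skull impact, and Sham mice were anaesthetised and handled in the same way without being struck. The tissue was digested with collagenase and DNase, and live single cells without DAPI stain were sorted, with no gate for any immune cell. With 1 pooled library for each group there was no replicate check and no test: a difference between Sham and TBI may be a difference between these 2 libraries, and every interval given is a 95% interval that covers counting error only.

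Dendritic cells sample their tissue, carry antigen to lymph nodes and present it to T cells. The cDC2 branch depends on the growth factor receptor Flt3 and the transcription factor Irf4, presents antigen on MHC class II mainly to CD4 T cells, and carries C-type lectins that bind sugars on glycoproteins and microbes. In the meninges these cells are found in the dura and around its venous sinuses beside macrophages, which can also carry MHC class II and express the complement C1q genes.

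The lectin genes that recur in this account sit in 2 clusters of related genes. Cd209a (ENSMUSG00000031494) lies on chromosome 8 of GRCm38 from 3743397 to 3748984, and Cd209c on the same chromosome from 3940222 to 3954746. Mgl2 (ENSMUSG00000040950) lies on chromosome 11 from 70130329 to 70137550 and its paralog Clec10a, also called Mgl1, from 70156197 to 70170834. The promoters of Cd209a, the marker held by most of the cells, and of Mgl2, the lectin with the largest difference between the libraries among the lectin genes with at least 500 UMIs, are shown because 2 factors measured in these cells, Spi1 (PU.1) and Irf4, are known to bind such elements. Capitals mark GGAAGT, a core that PU.1 and other ETS factors bind, and the ETS-IRF composite element. The composite was searched as GGAA, then any 2 bases, then GAAA. Both strands were searched for this order only, GAAA before GGAA was not searched, and the 2 motifs may overlap. The sequences are RefSeq's on GRCm38.p6 and run 5′ to 3′ on the gene's strand, from 250 bases before the start site to 50 after it, at chr8:3748935-3749234 on the minus strand and chr11:70130107-70130406 on the plus strand.
Cd209a: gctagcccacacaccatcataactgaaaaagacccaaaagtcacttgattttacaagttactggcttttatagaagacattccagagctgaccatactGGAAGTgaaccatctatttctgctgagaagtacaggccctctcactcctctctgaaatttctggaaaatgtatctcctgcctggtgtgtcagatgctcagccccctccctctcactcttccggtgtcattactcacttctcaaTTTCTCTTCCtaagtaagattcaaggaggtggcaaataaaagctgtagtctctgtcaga
Mgl2: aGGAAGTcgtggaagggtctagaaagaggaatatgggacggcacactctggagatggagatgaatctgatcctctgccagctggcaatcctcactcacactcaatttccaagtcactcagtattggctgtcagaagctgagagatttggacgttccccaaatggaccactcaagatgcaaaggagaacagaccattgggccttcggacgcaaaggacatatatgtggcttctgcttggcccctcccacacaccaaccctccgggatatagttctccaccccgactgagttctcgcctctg
In the Cd209a window GGAAGT began at -152 and the composite element began at -9 on the opposite strand, where the printed strand reads TTTCTCTTCC. In the Mgl2 window GGAAGT began at -249 and the composite letters were not found in the order searched. The window of the marker Ccl17, searched in the same way, held neither motif. Of 32851 promoter windows of this length, 23.8% held GGAAGT and 2.72% held the composite element, so the matches are a description of these windows and not evidence of binding.

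Cd209a carried the selection. It was detected in 79 of 84 Sham cells (94.0%) and 121 of 124 TBI cells (97.6%), Clec10a in 70 and 105, Cd209c in 55 and 78, Flt3 in 50 and 62, and the chemokine Ccl17 in 13 and 22. Over both libraries 41 cells held 2 of the 5 markers, 102 held 3, 58 held 4 and 7 held all 5. H2-Aa ranged from 22 to 361 UMIs a cell in Sham, with a median of 196, and from 11 to 358 in TBI, with a median of 133. No C1q UMI was seen in 165 of the 208 cells. The cells were chosen by these values, which are given as a description.

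The label was set beside a clustering of all cells and further markers. When all 5816 cells were clustered, 187 of the 208 cells (89.9%) fell into 1 of 27 clusters, which held 274 cells and was led by Cd209a, Ccl17, Ear2, Cd209c, Skint3 and Clec4b1. Cd209a, Ccl17 and Cd209c were also used by the selection, so this agreement is partly fixed by it and is no independent check. Of the others, 11 fell into a cluster led by Xcr1 and Clec9a, 7 into one led by Slamf9, Cx3cr1 and Fcgr4, 2 into a fibroblast cluster and 1 into a T cell cluster. Genes of conventional dendritic cells were present at low to moderate levels. In Sham and TBI, Zbtb46, the factor shared by conventional dendritic cells, stood at 34.8 and 39.2 CPM (a gene's UMIs scaled to a common total of the cDC2 of each library), below the 59.7 and 58.6 CPM of endothelial cells. Itgax (CD11c) stood at 116 and 122 CPM, Sirpa at 149 and 150.2 and Irf4 at 58.3 and 58.4. Of the genes listed as cDC1 markers, Irf8, which cDC1 need, stood at 25.6 and 29.7 CPM, but Naaa at 219 and 276, Batf3 at 127 and 119.6 and Wdfy4 at 122 and 113 CPM. Sirpa was higher in C1q-high cells, at 271 and 262 CPM, than in cDC2. Esam and Clec4a4, which mark cDC2 of the spleen, were at 0, as were Cd207 and Tnfsf4, in both libraries, where 3 UMIs would be 3.07 CPM in Sham and 2.87 CPM in TBI. UMIs count 3′ ends, so CPM were not divided by gene length. No cell barcode was shared by a Sham and a TBI cDC2, although 14 barcodes were shared among all filtered cells.

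The limits of the selection were not sharp. The 41 cells inside it with 2 markers held Cd209a at 1705 CPM and Lyz2, a lysozyme gene of monocytes and macrophages, at 4645 CPM, while the 28 cells outside it with 1 marker held Cd209a at 340.3 and Lyz2 at 14649.7. The 10 cells inside with 0.2 to 0.5% C1q UMIs and the 7 outside with 0.5 to 1% held Cd209a at 1531 and 1033 CPM. The 9 cells inside with 10 to 19 UMIs of H2-Aa all came from TBI and had a median of 1421 UMIs in all, against 8 cells outside with 5 to 9 UMIs of H2-Aa. A further 100 cells met every condition except that they held a UMI of a barred gene, with Cd209a at 1544 CPM, Mgl2 at 892 CPM, Klrd1 at 361 CPM, Csf1r at 59.1 CPM and Lyz2 at 1049 CPM. Of these 100 cells, 72 held Clec9a, 48 of them as 1 UMI.

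The cells taken as cDC2 made up 4.11% of the filtered cells in Sham (84 of 2043; exact binomial interval 3.29 to 5.07) and 3.29% in TBI (124 of 3773; 2.74 to 3.91). The ratio of TBI to Sham was 0.799 (0.601 to 1.07), and of the cells with at least 10 UMIs of H2-Aa they were 16.4% in Sham against 14.4% in TBI (ratio 0.875; 0.658 to 1.17). Both intervals include 1, but with a minimum of 20 UMIs of H2-Aa the ratio was 0.741 (0.555 to 0.994), which leaves out 1. Depth moved with this share. The filtered cells of the libraries had like medians, 2764 UMIs in Sham and 2663 in TBI, but the cDC2 had 11644 UMIs in Sham (2050 to 22116) and 8278 in TBI (628 to 21370). Of filtered cells with at least 10000 UMIs, 33.7% were cDC2 in Sham (58 of 172; 26.7 to 41.3) and 16.4% in TBI (34 of 207; 11.7 to 22.2). Of those with 5000 to 10000 UMIs, 7.99% were cDC2 in Sham (23 of 288) and 9.78% in TBI (67 of 685), and of those with 500 to 2000 UMIs, 0 of 771 in Sham, which allows a share of up to 0.477%, and 11 of 1359 in TBI. With cells of 2000 to 10000 UMIs alone the ratio became 1.51 (0.961 to 2.46), on the other side of 1. The part of depth in the share was not tested, and the total of a cell and the chance that it passed a UMI threshold cannot be told apart here.

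The cDC2 were then summed within each library, to 976952 UMIs in Sham and 1045024 in TBI, and compared for each gene as a ratio of CPM on the log2 scale. Of 6106 genes with at least 30 UMIs over both libraries, 8.22% were at least 1.5-fold higher in TBI (502 genes) and 4.44% at least 1.5-fold lower (271 genes). The median gene was at 0.02. The counting interval left out 0 for 209 of the genes that were higher (3.42% of those compared) and 107 of those that were lower (1.75%). Most of these genes were scarce. Among the 462 genes with at least 500 UMIs, only Mt1, Lars2 and Sparc were 1.5-fold higher and only Ccl17 was 1.5-fold lower, and for Sparc and Ccl17 most of the UMIs lay in 1 cell. Every ratio below is TBI over Sham on the log2 scale, with positive values higher in TBI.

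**Figure D1:**
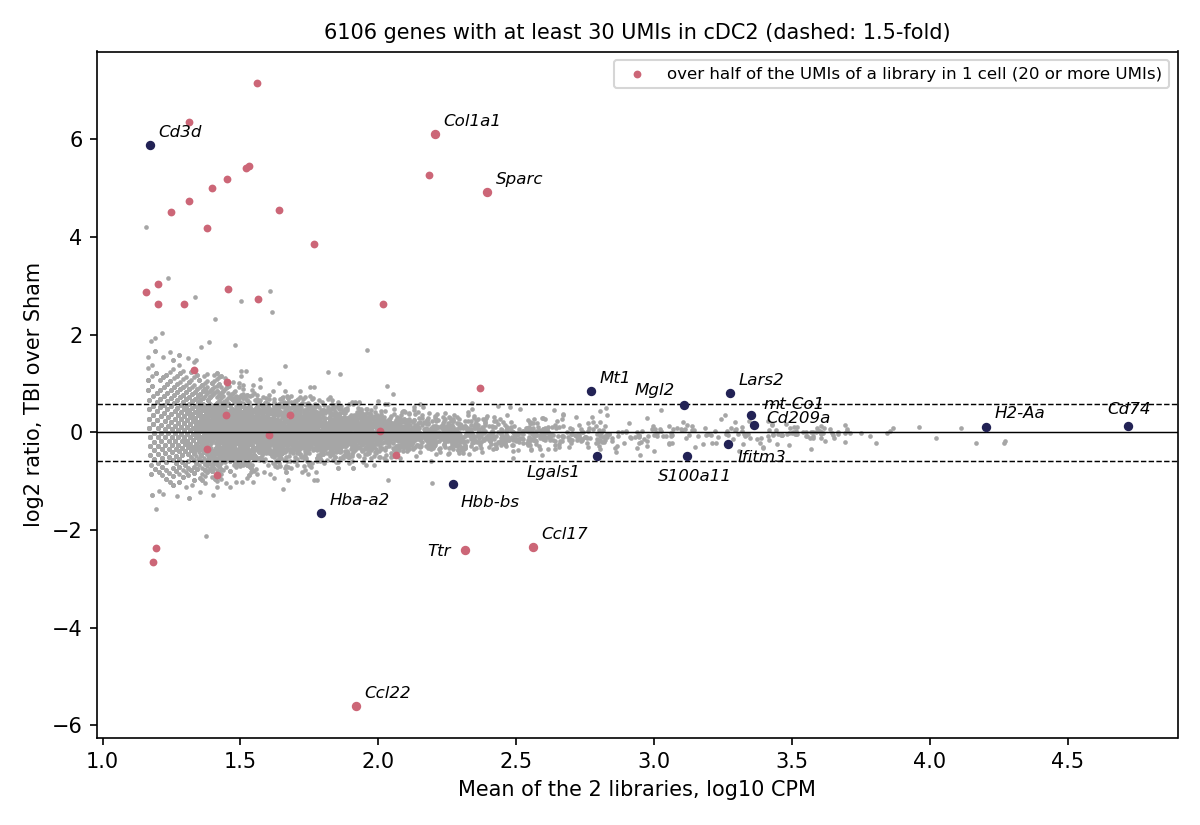
Each point is 1 of 6106 genes, by its mean CPM over the libraries (x axis, log10 scale) and its log2 ratio of TBI over Sham in cDC2 (y axis). Dashed lines mark 1.5-fold, and red points are genes with most of a library's UMIs in 1 cell, and dark points are other named genes. Among abundant genes few points lie past the lines, and those farthest from 0 are red.

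The lectins of the macrophage galactose type differed in their ratios. Mgl2, which binds terminal galactose and N-acetylgalactosamine and marks dermal and other cDC2, was at 1039 CPM in Sham and 1529 CPM in TBI (log2 ratio 0.56; 0.44 to 0.67). It was detected in 59 of 84 Sham cells and 101 of 124 TBI cells, with a median of 6.92 UMIs per 10000 in Sham (0 to 43.1) and 11 in TBI (0 to 74.1), so that the TBI cells lay higher at the median and reached higher, while the ranges overlapped. The ratio was 0.44 (0.23 to 0.66) among cells with 2000 to 10000 UMIs and 0.56 (0.42 to 0.71) among cells with more than 10000 UMIs. After thinning every cell to 2000 UMIs, which left out 11 shallower TBI cells and no Sham cell, Mgl2 was detected in 59.5% of Sham cells (48.3 to 70.1) and 75.2% of TBI cells (66.2 to 82.9). In endothelial cells thinned the same way, where no Mgl2 would be looked for, the shares were 0 and 1.67%, with medians of 2494 and 2738 UMIs before thinning. Clec10a, the paralog beside it, had a ratio of -0.10 (-0.27 to 0.07), at 579 CPM in Sham and 541 CPM in TBI, and its thinned shares were 51.2% and 49.6%. Among the 208 cells 133 held UMIs of both genes, 27 of Mgl2 alone, 42 of Clec10a alone and 6 of neither. Clec10a was used by the selection and Mgl2 was not, so the values of Clec10a and these counts are partly fixed by it. Because these genes are related in sequence, their UMIs are those that mapped to 1 gene only.

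Most other lectins and pattern receptors differed little. Cd209a was at 2186 CPM in Sham and 2422 CPM in TBI (0.15; 0.06 to 0.23), with per-cell medians of 19.2 and 21.0 UMIs per 10000, and it went to -0.04 (-0.15 to 0.08) among cells with more than 10000 UMIs. Cd209c had a ratio of 0.27 (0.00 to 0.54), and Clec4b1, a lectin of the Dectin-2 cluster, was at 353 and 373 CPM. Cd209a and Cd209c were also used by the selection. Cd209d, a further member of the Cd209 cluster, was at 67.6 CPM in Sham and 38.3 CPM in TBI (-0.81; -1.42 to -0.23), but at 0.05 among cells with 2000 to 10000 UMIs. Ddx58, which encodes the RNA sensor RIG-I, was at 27.6 and 12.4 CPM. Of the 38 genes of the list of lectins and pattern receptors 20 could be compared, with a median of 0.14. Past 1.5-fold were 2 higher (8.22% of all genes) and 2 lower (4.44% of all genes). The interval left out 0 for both lower genes, Cd209d and Ddx58 (1.75% of all genes), and for neither higher gene. The median was 0.35 among cells with 2000 to 10000 UMIs and -0.16 among deeper cells.

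**Figure D2:**
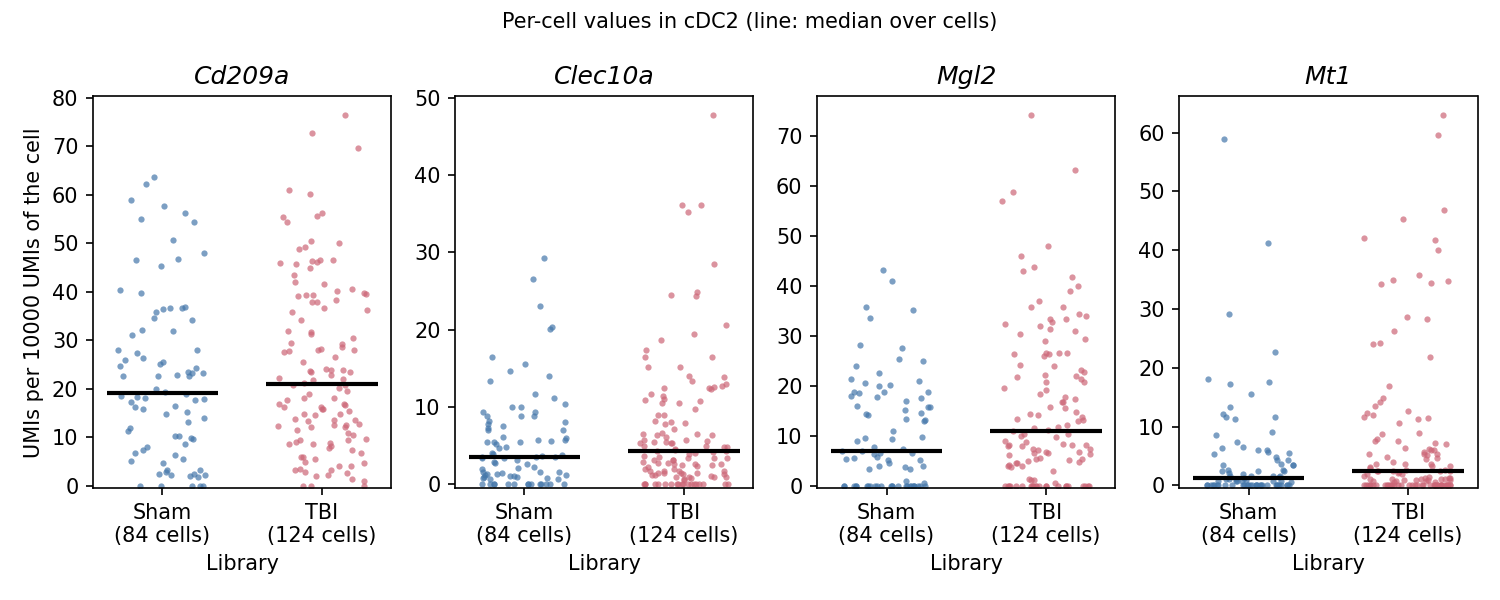
Each point is 1 cDC2, in UMIs per 10000 UMIs of that cell (y axis), for Cd209a, Clec10a, Mgl2 and Mt1 in Sham (84 cells) and TBI (124 cells), and the line is the median. The medians of Mgl2 were 6.92 in Sham and 11 in TBI, those of Mt1 1.33 and 2.45, and the ranges overlap for every gene.

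Antigen presentation genes made up a large part of the RNA and differed little. Cd74, the invariant chain that guides MHC class II to the endosome, was at 50102 CPM in Sham and 54717 CPM in TBI, and H2-Aa at 15335 and 16626. H2-Eb1 was at 12632 and 13309 CPM and H2-Ab1 at 10897 and 10116 CPM (-0.11; -0.15 to -0.07). H2-DMa and H2-DMb1, which load peptide, had ratios of -0.01 and 0.05, and Ciita, the master regulator of the class II genes, had a ratio of 0.24 (-0.03 to 0.52). None of the 14 class II genes compared passed 1.5-fold either way, and their median was 0.12. The direction of the most abundant genes differed between depths. H2-Aa had a ratio of 0.37 and Cd74 of 0.21 among cells with 2000 to 10000 UMIs, and -0.08 and -0.10 among deeper cells. H2-Aa was also used by the selection. Of 21 MHC class I genes 1, H2-Q4, was past 1.5-fold higher, against 8.22% of all genes (50.2 and 81.3 CPM; 0.69, 0.17 to 1.24), and the median was 0.06. H2-D1 was at 2033 and 2381 CPM and B2m, the light chain of class I, at 1265 and 1328.

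Costimulatory genes were sparse. Of 20 genes of costimulation and maturation 9 could be compared, with a median of -0.01 and 1 past 1.5-fold lower (4.44% of all genes), Cd40, at 31.7 CPM in Sham and 13.4 CPM in TBI (-1.22; -2.27 to -0.29). Of its 31 Sham UMIs 10 lay in 1 cell. Cd86 was at 15.4 and 15.3 CPM and Cd80 at 17.4 and 19.1 CPM, both of which bind CD28 on T cells.

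For the chemokines with the largest ratios most Sham UMIs lay in 1 cell. Ccl17, a ligand of CCR4 that draws T cells, was at 608 CPM in Sham and 119 CPM in TBI (-2.35; -2.65 to -2.08). In Sham, 471 of its 594 UMIs lay in 1 cell, and without the top cell of each library the ratio was -0.56. The same cell, with 12317 UMIs in all, held 143 of the 159 Sham UMIs of Ccl22, the other CCR4 ligand, 21 UMIs of Il4i1, 10 of Cd40 and 14 of Cd209a, and none of Flt3, Clec10a or Fscn1. Ccl22 had 3 UMIs in all TBI cells together, and its ratio without the top cell of each library was -3.56. With the cells that held genes of other cell types or at least 5 UMIs of Ccl22, Fscn1 and Il4i1 left out, Ccl17 turned to 0.61. The second limit left out 4 Sham cells, among them the cell described above, and no TBI cell, so it fixes this turn in part. The share of cells with Ccl17, which the selection used, was 15.5% in Sham and 17.7% in TBI, and 9.52% and 10.6% after thinning. Ccl5, a chemokine that draws T cells, was higher in TBI at 92.8 CPM against 38.9 CPM in Sham (1.24; 0.70 to 1.84). It was found in 9 Sham cells (10.7%) and 14 TBI cells (11.3%). T cell markers also summed higher in the TBI cells, as given below, and their part in this ratio was not tested. Ccl6, the most abundant chemokine compared when both libraries are summed, was at 564 CPM in Sham and 595 CPM in TBI, and Ccl9 at 248 and 216 CPM. Of 31 cytokine and chemokine genes 10 could be compared, with a median of -0.10, 1 past 1.5-fold higher (8.22% of all genes) and 3 lower, Ccl17, Ccl22 and Ltb (4.44% of all genes). Ccl24, Cxcl1, Cxcl2, Il1a, Il6, Il10, Il12a and Il23a were at 0 in both libraries, and Il1b and Tnf had 14 and 7 UMIs in Sham and 13 and 6 in TBI.

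Most genes for trafficking and most lineage factors differed little, but some genes of cDC2 identity were lower in TBI. Ccr2, a chemokine receptor of monocytes and their offspring, was at 557 and 647 CPM (0.22; 0.05 to 0.38), and Itgb7, the integrin subunit β7, at 387 and 404 CPM. None of 15 chemokine receptor and adhesion genes passed 1.5-fold, and their median was 0.07. Among 19 lineage factors and growth factor receptors the median was -0.00. Spi1 was at 551 and 510 CPM, Batf3 at 127 and 119.6 CPM and Flt3, which the selection used, at 96.2 and 109 CPM. Klf4, a factor needed by a part of the cDC2, was lower in TBI at 53.6 CPM against 89.1 CPM (-0.73; -1.24 to -0.23). Of 26 genes of cDC2 identity 20 could be compared, with a median of 0.03, none past 1.5-fold higher (8.22% of all genes) and 5 lower (4.44% of all genes): Ccl17, Cd209d, Il4i1, Cd24a (75.7 and 43.1 CPM) and the lymphotoxin gene Ltb (68.6 and 40.2 CPM). The list holds Cd209a, Ccl17, Flt3, Clec10a and Cd209c, the markers of the selection, so its median and counts are partly fixed by it. The Sham cell that held most Ccl17 also held 21 of 26 Sham UMIs of Il4i1. Without the top cell of each library Ccl17 was within 1.5-fold, while Il4i1 was at -1.23. Ltb had a ratio of -1.96 among cells with 2000 to 10000 UMIs and -0.06 among deeper cells.

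Interferon-induced genes were split by depth. Of the 66 genes of the list 49 could be compared, and 14 of them lay above 0, with a median of -0.18. Those past 1.5-fold with an interval that left out 0 were the GTPase gene Igtp (15.4 and 32.5 CPM) and the ubiquitin ligase gene Trim25 (31.7 and 51.7 CPM), higher in TBI (3.42% of all genes), and Oasl2, Zbp1, Gbp2 and Lgals3bp, lower in TBI (1.75% of all genes). For Gbp2 24 of 33 Sham UMIs lay in 1 cell, and its ratio without the top cell of each library was 0.61. Zbp1, a sensor of unusual nucleic acids, was at 59.4 and 33.5 CPM. Ifitm3, which blocks virus entry, was at 1994 CPM in Sham and 1699 CPM in TBI (-0.23; -0.32 to -0.14), Ifi27l2a at 1029 and 747 CPM (-0.46; -0.60 to -0.32) and Isg15, a ubiquitin-like modifier, at 137 and 136 CPM. Among cells with 2000 to 10000 UMIs (26 in Sham and 79 in TBI, median depths of 7788 and 7617 UMIs) the list's median was 0.31, over 30 genes. Ifitm3 was then at 0.49 (0.29 to 0.69), Ifi27l2a at 0.35 (0.09 to 0.62) and Isg15 at 1.08 (0.27 to 2.1). Among cells with more than 10000 UMIs (58 and 34 cells, median depths of 12796 and 12994) the list's median was -0.26, over 43 genes, with Ifitm3 at -0.46 (-0.59 to -0.34) and Ifi27l2a at -1.26 (-1.49 to -1.05). Not every gene followed this pattern: Ly6e was at -0.28 (-0.57 to 0.03) in the first range and -0.06 (-0.25 to 0.13) in the second. The median depths of the libraries were alike within each range while the list's medians had opposite signs, and over all cDC2 no direction can be given for these genes. In the C1q-high cells of the same libraries the list's median was -0.01, and in the cells with cDC1 markers 0.05.

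**Figure D3:**
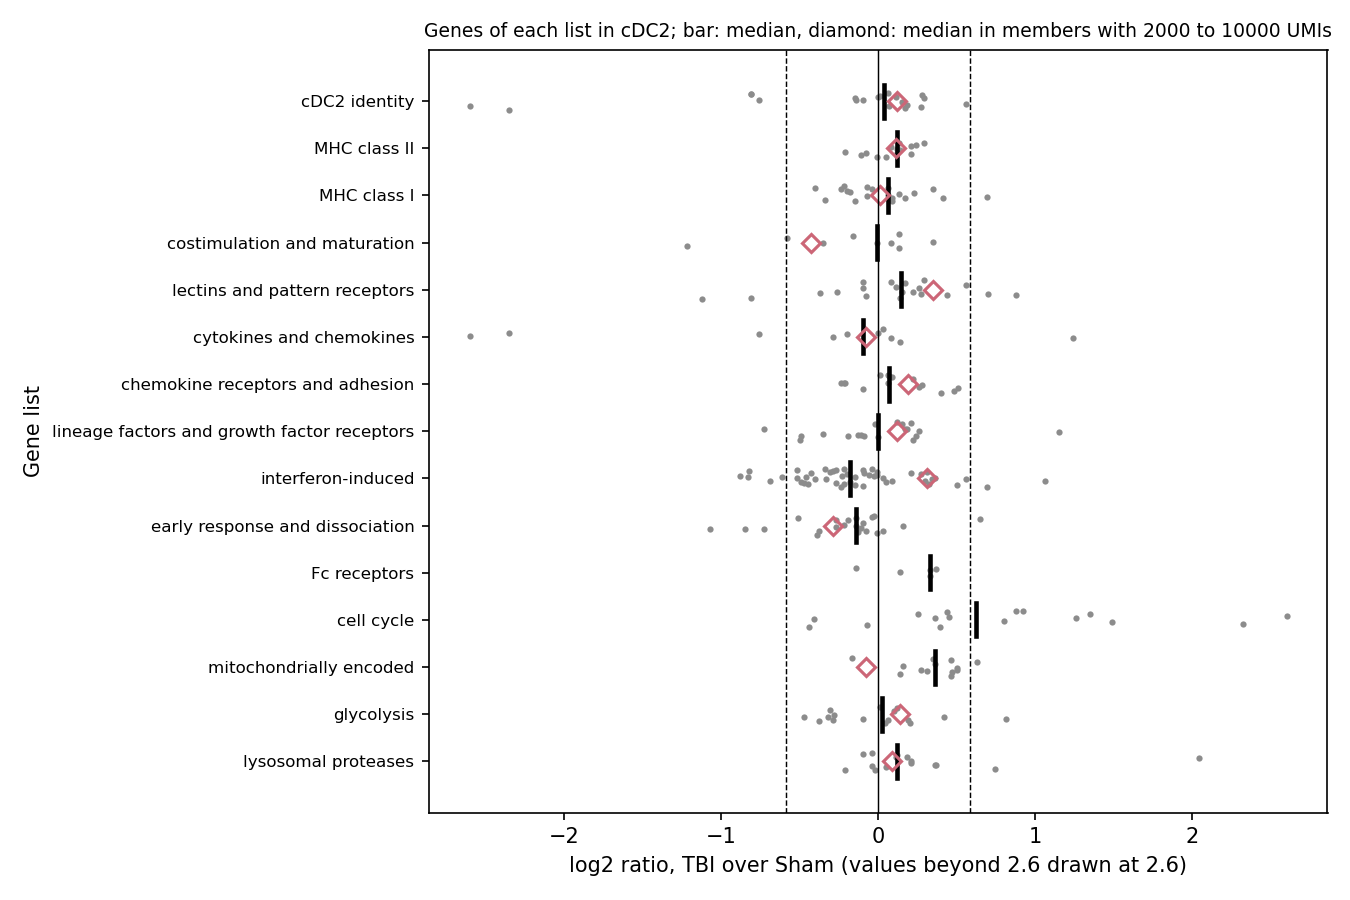
Each point is 1 gene of a list, by its log2 ratio of TBI over Sham in cDC2 (values past 2.6 are drawn at 2.6). The bar is the list's median over all cDC2 and the diamond the median among cDC2 with 2000 to 10000 UMIs. The interferon-induced list moves from -0.18 to 0.31 and the mitochondrially encoded list from 0.36 to -0.08 between the bar and the diamond.

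Mt1 was the abundant gene with the largest ratio that did not rest on 1 cell. It encodes a metallothionein that binds zinc and copper, and it lies on chromosome 8 from 94179082 to 94180327. Mt1 was at 421 CPM in Sham and 759.8 CPM in TBI (0.85; 0.68 to 1.03), in 54 of 84 and 86 of 124 cells, with per-cell medians of 1.33 (0 to 58.8) and 2.45 (0 to 63.0) UMIs per 10000. The TBI cells were higher at the median, the ranges overlapped, and in the subcluster of cDC2 with the most Mt1 the ratio was 0.09 (-0.16 to 0.34). Mt1 is among the leading genes of that subcluster, so this value is partly fixed by the grouping. The ratio was 0.47 (0.19 to 0.76) among cells with 2000 to 10000 UMIs and 0.68 (0.44 to 0.93) among deeper cells. Its neighbour Mt2 was at 35.8 and 52.6 CPM (0.55; -0.08 to 1.21). The ratio of Mt1 was 0.30 in C1q-high cells (329 and 405 CPM) and 1.83 in Ccr7 cells (223 and 800.1 CPM), while the cells with cDC1 markers stood at 68.7 and 66.7 CPM. Mgl2, by contrast, was at 1006 and 1083 CPM in C1q-high cells, a ratio of 0.11 (0.00 to 0.21).

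Lars2, the mitochondrial leucyl-tRNA synthetase, was at 1378 CPM in Sham and 2403 CPM in TBI (0.80; 0.71 to 0.90). In TBI 691 of its 2511 UMIs lay in 1 cell, and without the top cell of each library the ratio was 0.45. Its per-cell median was not higher in TBI, at 9.21 UMIs per 10000 in Sham and 8.41 in TBI. Its ratio was 0.17 (0.02 to 0.31) among cells with 2000 to 10000 UMIs and 0.75 (0.61 to 0.89) among deeper cells. In the subclusters described below it was 1.48 in the Ttr-led group, of which Lars2 is a leading gene. It was 0.64 in the cell cycle group, 0.23 (-0.02 to 0.49) in the Lyz2-led group and -0.11 (-0.29 to 0.07) in the Cd7-led group. Over the alternatives tried for single genes it lay between 0.13 and 0.83. Other groups had Lars2 ratios below 0: C1q-high cells -0.15, cells with cDC1 markers -0.85, Ccr7 cells -0.82, endothelial cells -1.11 and B cells -0.33. Of 13 mitochondrially encoded genes 12 were above 0, with a median of 0.36 and 1 past 1.5-fold higher, mt-Nd3 (66.5 and 103 CPM), near the 8.22% of all genes. mt-Co1, a subunit of cytochrome oxidase, was at 1958 and 2519.6 CPM. The list's median was -0.08 among cells with 2000 to 10000 UMIs and 0.23 among deeper cells. The same list had a median of 0.42 in C1q-high cells and 0.40 in cells with cDC1 markers, and the median share of mitochondrial UMIs over all filtered cells was 1.93% in Sham and 2.50% in TBI. Their part in the ratios of the cDC2 was not tested.

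Among abundant genes the lower side held Capg (361 and 253 CPM), which caps actin filaments, the galectins Lgals1 (725 and 517 CPM) and Lgals3 (1129 and 865 CPM), S100a11 (1533 and 1099 CPM), Tagln2 (826 and 623 CPM) and Pomp (457 and 329 CPM), which helps assemble the proteasome. These genes were chosen after their values were seen. Their ratios lay between -0.52 and -0.38, within 1.5-fold. S100a11 was detected in all 84 Sham cells and 114 of 124 TBI cells, with per-cell medians of 13.4 and 8.99 UMIs per 10000, and its ratio was -0.75 (-0.96 to -0.55) among cells with 2000 to 10000 UMIs and -0.23 (-0.37 to -0.08) among deeper cells. Lgals1 was at -1.08 and -0.01 in those ranges. The remaining lists were described by their medians. Early response and dissociation genes had a median of -0.14 (22 genes), with Atf3 past 1.5-fold higher (8.22% of all genes) and Klf4, Rhob and Hspa1b lower (4.44% of all genes). The medians were 0.03 for glycolysis (16 genes, 1 past 1.5-fold higher), 0.12 for lysosomal proteases (15 genes, 2 past 1.5-fold higher, of which Cd63 was at 2.04, 0.83 to 3.69, on 6 UMIs in Sham and 28 in TBI, 13 of these in 1 cell), 0.33 for Fc receptors (5 genes, none past 1.5-fold) and -0.03 for ribosomal proteins (83 genes, none past 1.5-fold).

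Cell cycle genes were unevenly placed. Of 16 genes compared 8 were past 1.5-fold higher in TBI, against 8.22% of all genes, 6 of them with an interval that left out 0 (3.42% of all genes), and none lower, with a median of 0.62. The summed list had a ratio of 0.22 (0.15 to 0.29), and its most abundant gene H2afz was at -0.07, Mcm5 at -0.41 and Pcna at -0.44. Top2a, which untangles DNA, was at 25.6 and 66.0 CPM (1.35; 0.69 to 2.09), in 9 Sham and 10 TBI cells, and Birc5 (survivin) at 8.19 and 43.1 CPM, in 5 and 9 cells. Of 69 TBI UMIs of Top2a 24 lay in 1 cell. Mki67, by which proliferating cells are stained, was found in 14 Sham and 7 TBI cells, at 34.8 and 47.8 CPM (0.45; -0.20 to 1.13). A doublet score marked 5 of the 26 cells of the subcluster led by cell cycle genes, against 13 of all 208 cells. Without the cells so marked Top2a was at 0.76 and Birc5 at 1.65.

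The genes farthest above 0 were those of another cell type. The 10 highest in TBI, among genes with at least 50 UMIs and an interval that left out 0, were Myoc, Col1a1, Col3a1, Mfap4, Col1a2, Igfbp6, Pcolce, Sparc, Dcn and Fmod, matrix and secreted genes of fibroblasts. Col1a1 had 4 UMIs in Sham and 332 in TBI, 318 of them in 1 TBI cell, and Sparc 15 and 502, 464 of them in 1 cell. Myoc had none in Sham and 76 in TBI, all in 1 cell, which is at least 4.57 higher against a floor of 3 Sham UMIs. The fibroblast markers summed to 15.4 CPM in Sham and 778 CPM in TBI, with 1 Sham cell and 2 TBI cells at 5 or more UMIs of Col1a1, Col1a2, Col3a1 and Dcn and 753 of the TBI UMIs of these genes in 1 cell. The T cell markers summed to 56.3 CPM in Sham and 159.8 CPM in TBI, with 1 and 5 cells at 5 or more UMIs of Cd3e, Cd3d and Cd3g, and Cd3d at 0 and 31 UMIs.

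The 10 lowest in TBI were Ccl22, Ttr, Ccl17, Hba-a2, Hba-a1, Riok1, Hsph1, Hbb-bt, Malt1 and Hbb-bs. Ttr, the transthyretin gene of choroid plexus, had 339 UMIs in Sham, 318 of them in 1 cell, and 68 in TBI, but it was found in 42 TBI cells against 17 Sham cells, and without the top cells its ratio was 1.42. The hemoglobin genes of red cells summed to 512 CPM in Sham and 216 CPM in TBI. All 4 that could be compared were at least 1.5-fold lower, against 4.44% of all genes. Hbb-bs was found in 69 of 84 Sham cells and 37 of 124 TBI cells, in 25% and 8.85% after thinning. The same gene was found in 60.5% of thinned Sham and 24.4% of thinned TBI endothelial cells, so its share in cDC2 was at or below that of a cell type without hemoglobin. The macrophage markers summed to 446 and 523 CPM, with Mrc1 the most abundant and a median of 0.33 over 9 genes. Lyve1, Folr2 and Mertk, which border macrophages carry, had 1 UMI each or none in either library, while Pf4 (6 and 25 UMIs) was past 1.5-fold higher. Markers of monocytes summed to 843 UMIs in Sham and 932 UMIs in TBI, of plasmacytoid dendritic cells to 329 and 299, of B cells to 190 and 199, of natural killer cells to 10 and 44, of mast cells to 11 and 24 and of neutrophils and endothelial cells to 8 and 18 each. Most of the monocyte UMIs were of Ccr2 (544 in Sham and 676 in TBI). Bst2, also on the interferon-induced list, gave 272 and 246 of the plasmacytoid UMIs, and Ighm 179 and 190 of the B cell UMIs. Siglech and Cd79a, of the last lists, were barred by the selection. These sums thus rest mainly on single genes and do not measure the amount of those cell types. The part of the cell types named above in the other ratios was not tested. Over the 14 alternatives tried for single genes, which include leaving such cells out, the ratio of Mgl2 lay between 0.42 and 0.75 and that of Mt1 between 0.47 and 1.08. A doublet score marked 6 of the Sham and 7 of the TBI cells.

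The 208 cells fell into 4 subclusters when clustered alone. The largest, of 82 cells (43 Sham and 39 TBI), was led by Cd7, Irf7, Tbc1d10c, Ltb, Zbp1 and Isg15. The next, of 60 cells (17 and 43), was led by C1qb, Lyz2, Fcgr3, Fcrls, Mt2 and Mt1. A group of 40 cells (14 and 26) was led by Ttr, Igfbp5, Mgp, Lifr and Hbb-bs, genes of other cell types, and a group of 26 cells (10 and 16) by the cell cycle genes Stmn1, Top2a, Pclaf and Mki67. These genes defined the subclusters and are not results, and the subclusters were not named. The sizes were not compared between libraries, because genes that differ between the libraries are among those that define them. Within them Mgl2 was at 712 CPM in Sham and 1153 CPM in TBI in the Cd7-led group (0.70; 0.49 to 0.90), 1798 and 2047 CPM in the Lyz2-led group (0.19; -0.01 to 0.39) and 1229 and 2364 CPM in the Ttr-led group (0.94; 0.69 to 1.21). In the cell cycle group it was lower in TBI, at 539 CPM against 1069.9 CPM (-0.99; -1.36 to -0.62), on 16 and 10 cells. Mt1 was at 1164 and 1239 CPM in the Lyz2-led group, where it was most abundant (0.09; -0.16 to 0.34), at 214 and 399 CPM in the Cd7-led group (0.90; 0.53 to 1.27) and at 657 and 1318 CPM in the Ttr-led group (1.00; 0.65 to 1.37). Klrd1, which the selection did not use, was highest in the Cd7-led group, at 456 CPM in Sham and 444 CPM in TBI, and at 179 and 218 CPM in the Lyz2-led group. Lyz2 itself was at 1142 and 1411 CPM in the Cd7-led group and 6495 and 5020.3 CPM in the Lyz2-led group. Mt1 and Lyz2 are among the genes that lead that group, so their values there are partly fixed by the grouping.

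**Figure D4:**
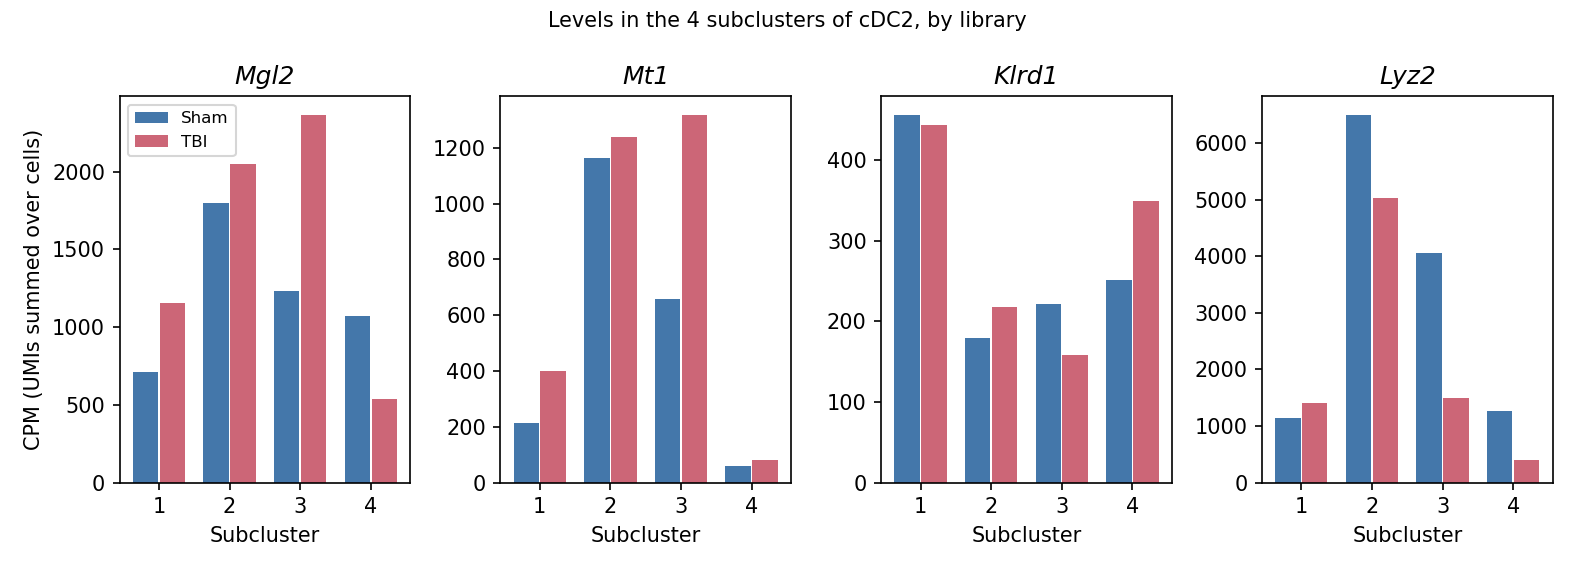
Bars give CPM of Mgl2, Mt1, Klrd1 and Lyz2 (y axis, from 0) in the 4 subclusters of cDC2 (x axis), in Sham and TBI, each bar a sum over the cells of 1 library with no replicate. Mgl2 is higher in TBI in the groups led by Cd7, Lyz2 and Ttr and lower in the cell cycle group, where it is at 1069.9 CPM in Sham and 539 CPM in TBI.

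The cDC2 were set beside 3 other groups of cells with H2-Aa, C1q-high cells (162 Sham and 466 TBI), cells with at least 2 UMIs of Xcr1 and Clec9a (15 and 34) and cells with at least 2 UMIs of Ccr7 (16 and 17). The selection made these groups exclusive, so their differences are a description and carry no test. Beside C1q-high cells the genes highest in cDC2 in both libraries were Klrd1, Cd7, Nccrp1, Bcl11a, Ddr1, Pkp3, Btla, Rhof, Tnfrsf18 and Jaml. Klrd1 (CD94), a lectin-like receptor best known from natural killer cells, was at 339 CPM in Sham cDC2 and 308 CPM in TBI cDC2, and at 3.74 and 2.50 CPM in C1q-high cells, but it was also counted in cells with cDC1 markers (100 and 77.4 CPM) and in Ccr7 cells (127 and 219 CPM), while the natural killer cell gene Nkg7 had 3 and 33 UMIs in the cDC2. Klrd1 was detected in 65 of 84 and 87 of 124 cDC2, and in 33.3% and 44.2% after thinning against none of the thinned endothelial cells. Bcl11a, a factor of lymphoid and plasmacytoid lineages, was at 99.3 and 88.0 CPM against 2.81 and 1.78 CPM. It was also counted in cells with cDC1 markers, at 56.2 and 48.0 CPM, so it is not particular to cDC2. Lower in cDC2 were Cd209f, Cd209g, Cbr2, Stab1, Ccl24, C5ar1, Ms4a7, C4b, Cd36 and Lilra5, and Cd209f had 0 UMIs in cDC2 of either library against 221 and 388 in C1q-high cells. Cd209a, which the selection used, was at 79.6 and 31.8 CPM in C1q-high cells.

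Beside the cells with cDC1 markers, the genes highest in cDC2 were Il1rl1, Pclaf, Fcrls, Siglece, Mt2, Mki67, Ccl5, Il7r, Stmn1 and Gm16553. Each of them had 0 UMIs in the 15 Sham cells with cDC1 markers, so their order rests partly on the pseudocount. Pclaf, Mki67 and Stmn1 are leading genes of the cell cycle subcluster. Il1rl1 (ST2), the receptor of interleukin 33, was at 62.4 CPM in Sham cDC2 and 48.8 CPM in TBI cDC2 and at 0 in the cells with cDC1 markers, where 3 UMIs would be 18.7 and 8 CPM. Lower in cDC2 were Gcsam, Cd36, Gpr141b, Irf8, Snx22, Itgae, Fcrla, Cxcl9, Ppt1 and Tlr3, with Irf8 at 1481 and 1801 CPM in the cells with cDC1 markers. Itgae (CD103) and Tlr3, a sensor of double-stranded RNA, are known markers of cDC1. Beside Ccr7 cells, cDC2 were highest in Mgl2, Cfp, Hpgd, Ckb, Tent5a, Itgam, Clec4b1, Dab2, Lmo1 and Il16. Mgl2 had 1 UMI in Sham and none in TBI Ccr7 cells, and Cfp (properdin), at 342 and 363 CPM in cDC2, had none in either. Lower in cDC2 were Nudt17, Fscn1, Apol7c, Zmynd15, Cacnb3, Serpinb6b, H2-M2, Il12b, Ccl5 and Tnfrsf4. Fscn1, which bundles actin in migrating dendritic cells, was at 5941 and 4743 CPM in Ccr7 cells and 7.17 and 0 CPM in cDC2.

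**Figure D5:**
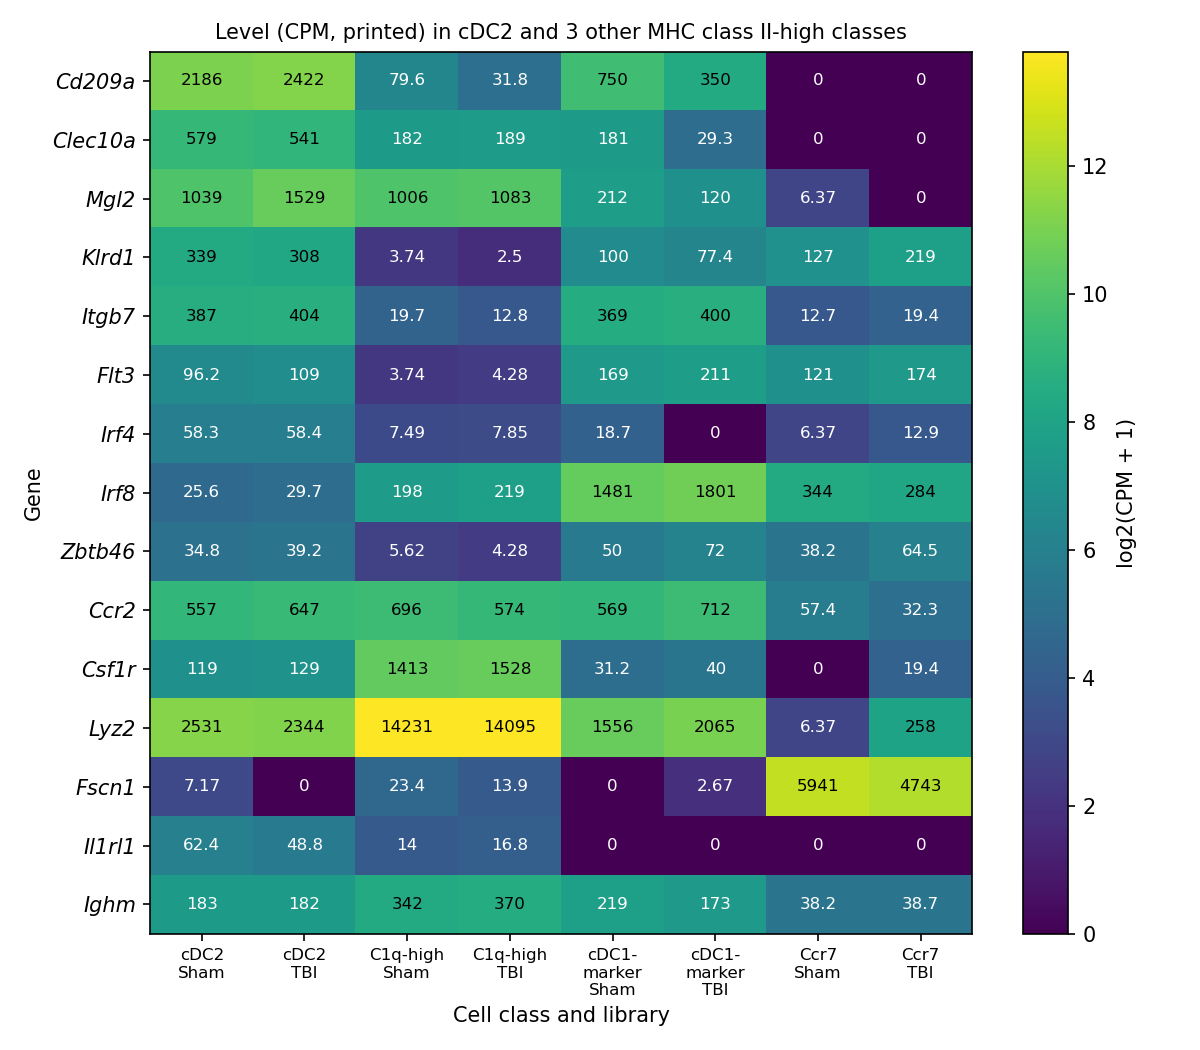
Colour gives log2(CPM + 1) and the number in each box the CPM of 15 genes (rows) in cDC2, C1q-high cells, cells with cDC1 markers and Ccr7 cells, each in Sham and TBI (columns). Klrd1 and Cd209a are highest in cDC2, with Klrd1 also at 127 and 219 CPM in Ccr7 cells, Irf8 in cells with cDC1 markers and Fscn1 in Ccr7 cells, in both libraries.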

How the data were processed

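The authors made 1 droplet library (10x Genomics 3′ v2) for each group and deposited raw gene-by-barcode matrices of UMI counts on mm10. The submitters' processing notes name Cell Ranger 2.1.1, and the matrix headers name version 3.1.0. Of 2699 Sham and 4349 TBI barcodes, 2043 and 3773 were kept, with 150 to 5000 genes, at most 20% mitochondrial and at most 5% hemoglobin UMIs. Clustering used 2000 variable genes, 20 components, 20 neighbours and Leiden resolution 0.8 (leidenalg 0.10.2, scikit-learn 1.9.0). Doublets were scored against simulated ones (2.30% of Sham and 3.26% of TBI cells marked), kept in the main values and left out as an alternative. UMIs were summed over the cDC2 of a library, and log2 ratios used a pseudocount of 0.5 and genes with at least 30 UMIs. Shares have exact binomial (Clopper-Pearson) intervals and ratios exact conditional binomial ones (scipy 1.17.1), all covering counting error only.

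C1q-high cells held at least 10 UMIs of H2-Aa, at least 0.5% C1q UMIs and no Cd79a. The other groups of cells with H2-Aa held under 0.5% C1q UMIs. The cells and the gene lists were chosen with earlier results of these data known. Genes named are those of the selection and of the lists (the most abundant and those past 1.5-fold with an interval that leaves out 0), the 10 with the largest ratio each way among genes with at least 50 UMIs, and the 10 that lead each comparison with another group. Further genes of the lists are named for their role, and Nkg7, Pomp, Capg, S100a11, Tagln2, Lgals1, Lgals3, Ighm and Cd79b were chosen after their values were seen. Gene positions are those of the GENCODE vM21 annotation on GRCm38. The ratios and their intervals were tested on simulated data. Some single genes of the lists are not reported here.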

Additional observations from a re-analysis of the deposited data

How the results depend on the processing

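No paired analysis was possible because each group had 1 library. The alternatives that left out cells with genes of another type, the Ttr-led or the cell cycle subcluster, or cells of up to 10000 UMIs, and the one that allowed 1 UMI of the barred genes, were chosen after seeing the data. The share ratio was 1.51 with cells of 2000 to 10000 UMIs and stayed between 0.741 and 0.875 otherwise. The number of genes past 1.5-fold higher was 812 with a mean over cells. It was 288 among cells of 2000 to 10000 UMIs, where 2941 genes could be compared against 6106 in all cDC2. With a minimum of 10 UMIs it was 1273 and with a minimum of 100 UMIs 43, and the number lower was 705 and 32 with those minimums. The cause of the differences was not tested, apart from the number of genes that each minimum admits.

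Of the list medians, the mean over cells moved lectins to 0.29, chemokine receptors to 0.26 and mitochondrially encoded genes to 0.54. Cells of 2000 to 10000 UMIs moved costimulation to -0.43, lectins to 0.35, chemokine receptors to 0.19, lineage factors to 0.12, interferon-induced genes to 0.31, early response to -0.29, mitochondrially encoded genes to -0.08 and glycolysis to 0.14. Cells with more than 10000 UMIs moved cDC2 identity to -0.09, MHC class II to -0.08, costimulation to -0.40, lectins to -0.16, lineage factors to -0.14, mitochondrially encoded genes to 0.23 and lysosomal proteases to 0.01. Leaving out doublets moved MHC class I to -0.06, 3 markers moved mitochondrially encoded genes to 0.48, leaving out top cells moved costimulation to 0.12, and a minimum of 100 UMIs moved it to 0.13. Leaving out cells with genes of another type moved cytokines to 0.04 and lineage factors to 0.10. Without the Ttr-led subcluster costimulation was at -0.24, early response at -0.24 and mitochondrially encoded genes at 0.24. Without the cell cycle subcluster MHC class I was at -0.06, costimulation at -0.14, lectins at 0.25 and lysosomal proteases at 0.27. Allowing 1 UMI of the barred genes moved costimulation to -0.14 and early response to 0.03. Without doublets 6 of the 10 genes that lead against cells with cDC1 markers remained.

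Single genes that changed direction were, among cells of 2000 to 10000 UMIs, Ttr (1.28), Fmod (-0.79), Cd209d (0.05), Ifitm3 (0.49), Ifi27l2a (0.35) and H2-Ab1 (0.06), and among deeper cells H2-Aa (-0.08), Cd74 (-0.10) and Cd209a (-0.04). Myoc had no Sham UMI and all its TBI UMIs in 1 cell. Without that cell its ratio is set by the pseudocount and the library totals, which is no change of direction. Any gene with equal counts in both libraries takes the same value. Among cells of 2000 to 10000 UMIs Myoc and Pcolce were both at this value, -1.53. H2-Ab1 was at 0.04 with a mean over cells, and Ttr at 1.76 without doublets. Without top cells Ttr was at 1.42, while Myoc, then without a UMI in either library, was at -0.10. Without cells with genes of another type or at least 5 UMIs of Ccl22, Fscn1 and Il4i1 (4 Sham cells and no TBI cell), Ccl17 was at 0.61, Ccl22 at 2.75 and Ttr at 1.80. The limit on those 3 genes fixes the turn of Ccl22 and, in part, that of Ccl17. Myoc and Pcolce were both at -0.06, the value of equal counts. Without the Ttr-led subcluster Ttr was at 1.41 (Ttr leads the cells left out), and Myoc, Pcolce and Cd63 were all at -0.04, the value of equal counts. Without the cell cycle subcluster, which Birc5 helps to define, Birc5 was at -0.82. Counts this low limit the single genes: 3 UMIs are 3.07 CPM in Sham and 2.87 CPM in TBI.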

Other observations

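The cDC2 held the immunoglobulin heavy chain gene Ighm with almost no light chain. Ighm was detected in 67 of 84 Sham cells and 87 of 124 TBI cells, at 183 and 182 CPM, while the light chain gene Igkc had 2 and 1 UMIs in all of them and Cd79b, a part of the B cell receptor, 7 and 3. Thinned to 2000 UMIs, 29.8% of Sham and 37.2% of TBI cells held Ighm, against 1.32% and 2.78% of endothelial cells. Ighm stood at 342 and 369.6 CPM in C1q-high cells, at 219 and 173 CPM in cells with cDC1 markers, at 38.2 and 38.7 CPM in Ccr7 cells and at 2166 and 2091 CPM in B cells. Its ratio of TBI over Sham in cDC2 was near 0, and Cd79a was barred by the selection. The gene was singled out after its values were seen.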
